A study of Mus musculus with 8 samples.

Results

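The 40 genes described here act in the cell division cycle. They were 22 genes of G2 phase and mitosis, called mitotic below, 12 genes of S phase, and 6 genes of the G1 decision, namely D-type cyclins and inhibitors of the cyclin-dependent kinases (CDKs). Each gene was read from the transcript cluster (the probes summarised for one transcript) whose platform annotation names that gene alone. Where several clusters did, the cluster with the highest mean over all 8 arrays was kept. By this rule 37 of the 40 genes were measured, of 30701 genes measured in all. Ccnb1, which encodes cyclin B1, had no cluster of its own name. The clusters of Mcm7 and of the cyclin D1 gene Ccnd1 are annotated with further genes and were not analysed here.

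Fibroblasts were sorted from the colon of wild-type C57BL/6J mice as cells negative for the epithelial marker Epcam, the leukocyte marker CD45 and the endothelial marker CD31, and positive for gp38. They were split by the surface protein CD90, encoded by Thy1, into a CD90- and a CD90+ population, with 4 samples of each drawn from 4 mice. The labels tie no sample to a mouse and give no age or treatment, and the p-values reflect sample-to-sample spread, part of which may be technical. The RNA of each sample, 2 ng, was amplified and hybridised to 1 Affymetrix mouse transcriptome array. All levels below are log2 expression as deposited, and all differences are CD90+ minus CD90- on that scale, which is stretched at its top and does not give ratios of RNA amounts.

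A cell that divides passes from G1, where D-type cyclins and CDK inhibitors set whether it goes on, through S phase, where DNA is copied, to G2 and mitosis, where chromosomes are condensed and separated. Genes of S phase are largely switched on by E2F factors in late G1. Many G2 and mitotic genes are controlled through CCAAT boxes and a short element called the cell cycle homology region. The DREAM and MuvB complexes act at the latter. Many S phase genes are also expressed at a basal level outside the cycle, for DNA repair and nucleotide supply, whereas mitotic transcripts are close to absent in resting cells.

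The sort was visible in the data: Thy1 lay between 5.46 and 5.57 in the CD90- samples and between 7.03 and 8.11 in the CD90+ samples. Pdpn, which encodes gp38, lay between 13.00 and 13.54 in all 8 samples, and the fibroblast genes Dcn, Fn1 and Bgn were above 17 on every array. Samples 13 (CD90-) and 14 (CD90+) stood apart from the rest. In these samples Xist was 16.16 and 16.27, against 5.89 to 9.32 in the other 6. The results below are therefore given with and without these samples where it mattered. The median of the 5222 negative control probe sets was 6.81 ± 0.02 in the CD90- samples and 6.64 ± 0.05 in the CD90+ samples (SD, n = 4 each), a difference of -0.17. Of the 37 measured genes, 22 had both population means below these control medians, so that small falls in dim genes were of the size of this background shift.

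Every mitotic gene that was called was lower in CD90+ fibroblasts. The genes were chosen with earlier results of these data known, so their counts are descriptive. A gene was tested with limma where at least 4 of the 8 samples reached 5.36, which is the median over all clusters, and called at an adjusted p below 0.05. Of the 21 measured mitotic genes 15 were tested, of which 8 were called lower and 0 higher (10 and 0 at an unadjusted p below 0.05), with a median difference of -0.45. Over all 17220 genes tested, 15.7% were called lower and 14.0% higher, with a median difference of -0.01. At an unadjusted p below 0.05 there were 6986 of them, both directions together. With arrays centred on the negative control probe sets, the median of all genes was 0.16, and the split over all genes went from 2415 higher and 2701 lower to 5425 higher and 1463 lower. On that scale 6 of 15 mitotic genes were called lower and 0 higher, with a median of -0.28. Because a dim gene can pass the filter through its higher population alone, all 21 measured mitotic genes were also tested without it. Then 10 were called lower and 0 higher, against 8.16% lower and 8.03% higher of all 30701 genes. In 20 of the 21 measured mitotic genes the mean was lower in CD90+ cells, the exception being Cenpa. The share over all genes was not counted, and their median difference without a filter was 0.01. In 17 of the 21 both means were below the negative control medians, which were themselves lower in CD90+ samples. With arrays centred on the negative control probe sets, Aurka (0.028) and Cdc20 (0.030) were also above 0. Each of the 8 genes called lower in the main test had a CD90+ mean below the CD90+ negative control median of 6.64. The CD90- mean was above its control median of 6.81 in Mki67, Top2a, Ccna2 and Bub1b. In Cdk1, Kif11, Kif20a and Tpx2 it was below. In sorted bulk samples, fewer dividing cells and less RNA per dividing cell cannot be told apart.

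**Figure D1:**
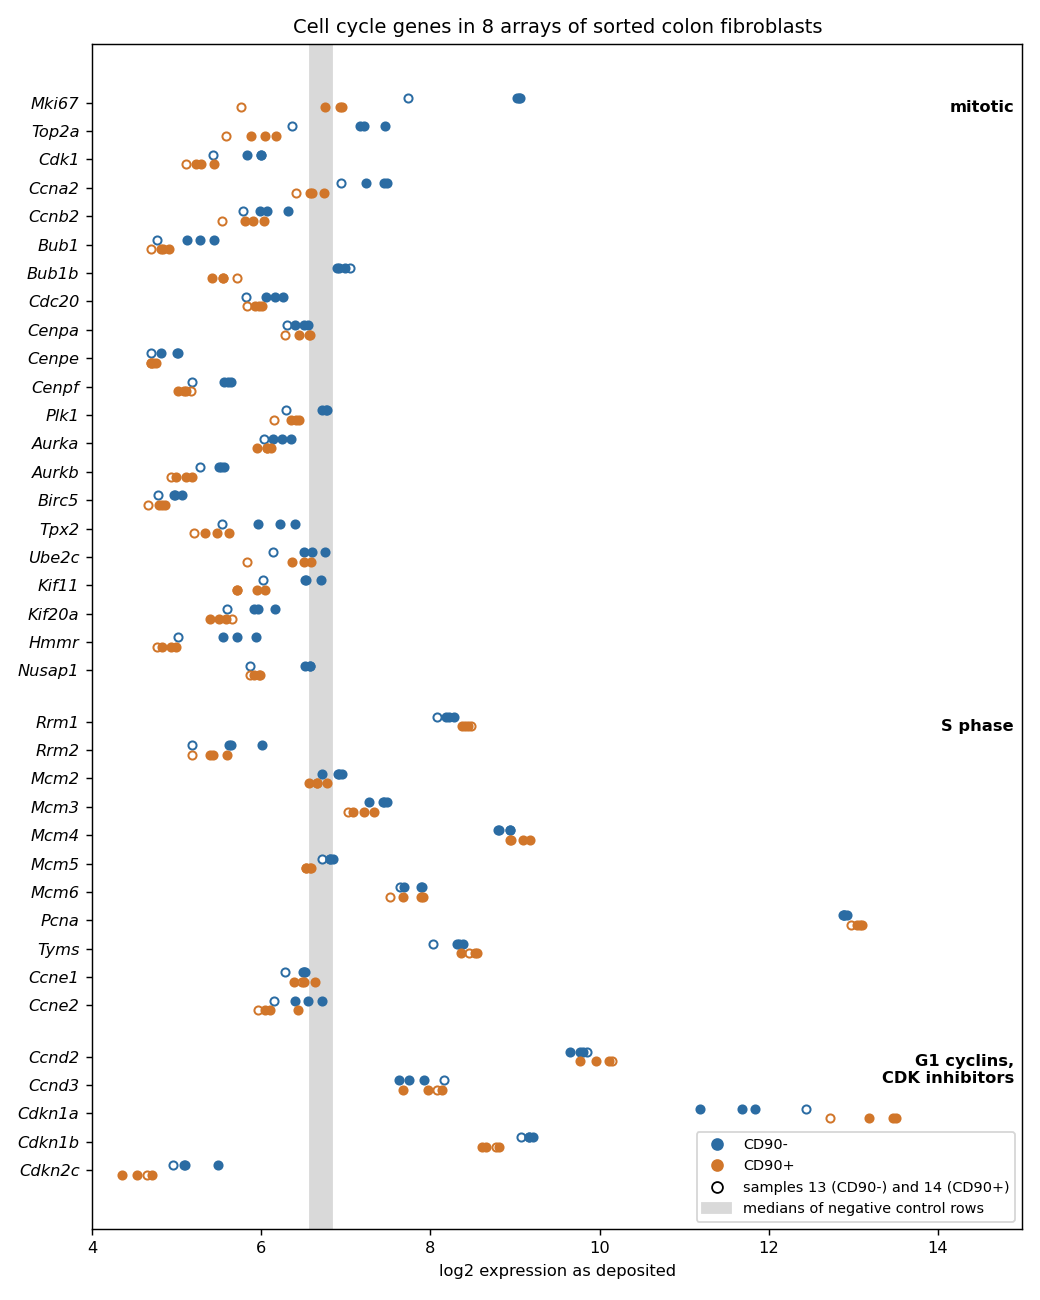
Log2 expression as deposited (x axis) of the 37 measured genes (y axis) in each of 8 samples, CD90- in blue and CD90+ in orange, with open circles for samples 13 and 14 and a grey band for the range of the negative control medians, 6.58 to 6.84. Most mitotic genes lay within or left of the band. The populations overlapped in 14 of 21 mitotic and 8 of 11 S phase genes. The 7 other mitotic genes were all lower in CD90+ samples, and of the 3 other S phase genes 1 was lower and 2 were higher. Hmmr, Aurkb and Cenpf, among these 7, were not tested. Of the 15 tested mitotic genes, 4 were lower and 0 higher without overlap. Of all 17220 genes tested, 2987 were lower and 2572 higher without overlap.

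Both genes of chromosome structure were called lower. Mki67, which encodes the Ki-67 protein that coats mitotic chromosomes, measured 7.74, 9.05, 9.03 and 9.06 in CD90- samples 13, 15, 17 and 19. In CD90+ samples 14, 16, 18 and 20 it measured 5.76, 6.96, 6.76 and 6.93. Samples 13 and 14 were each the lowest of their population, and the populations did not overlap. The mean fell by 2.12 ± 0.36 (SE; 95% interval -2.95 to -1.29; limma adjusted p = 0.00254), and without samples 13 and 14 the difference was -2.17 (adjusted p = 3.06e-06). Top2a, the topoisomerase that untangles replicated chromosomes, measured 6.37, 7.46, 7.17 and 7.22 in CD90- samples. It measured 5.58, 6.17, 5.88 and 6.05 in CD90+ samples. Every CD90- sample was above every CD90+ sample, and the mean fell by 1.14 ± 0.23 (SE; adjusted p = 0.00614).

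Among the cyclins and their kinase, Ccna2 encodes cyclin A2, which acts in S phase and G2. Its level was 6.94, 7.49, 7.45 and 7.24 in CD90- samples and 6.41, 6.75, 6.57 and 6.60 in CD90+ samples. The populations did not overlap, and the difference was -0.70 ± 0.13 (SE; limma adjusted p = 0.00392). Cdk1, the kinase that drives entry into mitosis, measured 5.43, 5.84, 6.00 and 5.99 in CD90- samples and 5.12, 5.45, 5.23 and 5.29 in CD90+ samples. Its populations overlapped by a narrow margin, with CD90- sample 13 just below CD90+ sample 16, and it fell by 0.54 ± 0.14 (SE; adjusted p = 0.0159). All Cdk1 values were below the negative control medians of their arrays, and the gene passed the filter through its 4 CD90- samples, since 1 CD90+ sample reached it. With every measured gene tested its adjusted p was 0.0227. Ccnb2, a B-type cyclin that partners Cdk1, ran from 5.78 to 6.32 in CD90- and from 5.54 to 6.03 in CD90+ samples and was not called (difference -0.22, adjusted p = 0.262).

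The kinetochore and checkpoint genes were divided. Bub1b, which encodes the checkpoint protein BubR1, measured 7.05, 6.92, 6.99 and 6.90 in CD90- samples and 5.72, 5.42, 5.55 and 5.55 in CD90+ samples. Samples of one population lay close together, far from the other population, and here samples 13 and 14 were the highest of their populations. The difference of -1.40 ± 0.08 (SE) had the smallest adjusted p of the tested cell cycle genes, 3.65e-06 with limma. Cdc20, the activator of the anaphase-promoting complex, differed by -0.14 (adjusted p = 0.321), and Ube2c, the ubiquitin-conjugating enzyme of that complex, by -0.18 (adjusted p = 0.516). Cenpa, the centromeric histone, differed by 0.03 (95% interval -0.17 to 0.24; adjusted p = 0.828). These last 3 genes overlapped between populations, with both means below the negative control medians.

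Among the spindle motors and binders, Kif11, the kinesin that pushes spindle poles apart, measured 6.02, 6.70, 6.53 and 6.51 in CD90- samples and 5.71, 5.71, 6.05 and 5.96 in CD90+ samples. Sample 13 again fell among the CD90+ values, and the difference was -0.58 ± 0.15 (SE; limma adjusted p = 0.0189). Kif20a, a kinesin of cytokinesis, measured 5.59, 6.16, 5.96 and 5.92 in CD90- samples and 5.65, 5.58, 5.50 and 5.39 in CD90+ samples. It too overlapped through sample 13, and it fell by 0.37 ± 0.12 (SE; adjusted p = 0.0447, and 0.064 without a filter). Nusap1, which bundles spindle microtubules, ran from 5.87 to 6.58 in CD90- and from 5.86 to 5.98 in CD90+ samples (difference -0.45, adjusted p = 0.0585). Without samples 13 and 14 its difference was -0.60 with an adjusted p of 0.000405.

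Of the mitotic kinases and their partners, Tpx2, which activates Aurora A on the spindle, was called. It measured 5.53, 6.40, 5.97 and 6.23 in CD90- samples and 5.20, 5.62, 5.34 and 5.48 in CD90+ samples. The overlap again came from sample 13, and the difference was -0.62 ± 0.18 (SE; limma adjusted p = 0.0311). Tpx2 passed the filter in 4 CD90- and 2 CD90+ samples, and without a filter its adjusted p was 0.0446. The kinase genes Plk1 (difference -0.30, adjusted p = 0.102) and Aurka (difference -0.14, adjusted p = 0.228) were not called, and Plk1 had an adjusted p of 0.00572 without samples 13 and 14.

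Another 6 mitotic genes were too dim to be tested, as was the CDK inhibitor gene Cdkn2c. Hmmr, which encodes a spindle-binding protein, measured 5.01, 5.71, 5.55 and 5.94 in CD90- samples and 4.77, 4.99, 4.83 and 4.94 in CD90+ samples. The kinase gene Aurkb ran from 5.27 to 5.56 against 4.93 to 5.18, and Cenpf, a kinetochore protein gene, from 5.18 to 5.64 against 5.02 to 5.17. In all 3 genes the CD90- samples lay above the CD90+ samples. Bub1, Cenpe and Birc5 overlapped, with differences of -0.34, -0.17 and -0.16. When every measured gene was tested, Hmmr (adjusted p = 0.03), Aurkb (adjusted p = 0.0108) and Cenpf (adjusted p = 0.0307) were called lower by limma, and Bub1, Cenpe and Birc5 were not.

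Sample 13 was the lowest CD90- sample in 20 of the 21 measured mitotic genes, and sample 14 the lowest CD90+ sample in 16 of 21. Without these samples, 10 of 15 tested mitotic genes were called lower. Without CD90- sample 17 or CD90- sample 19 the count was 5. Mki67, Top2a, Ccna2, Cdk1 and Bub1b kept their call under every one of the 17 or 18 alternatives in which each was tested, whereas Kif20a lost it under 8 of 17, Tpx2 under 7 of 17 and Kif11 under 3 of 17. Of the 15 tested genes, 4 (Mki67, Top2a, Ccna2 and Bub1b) had lower CD90+ samples with no overlap between populations, against 17.3% of all genes tested.

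**Figure D2:**
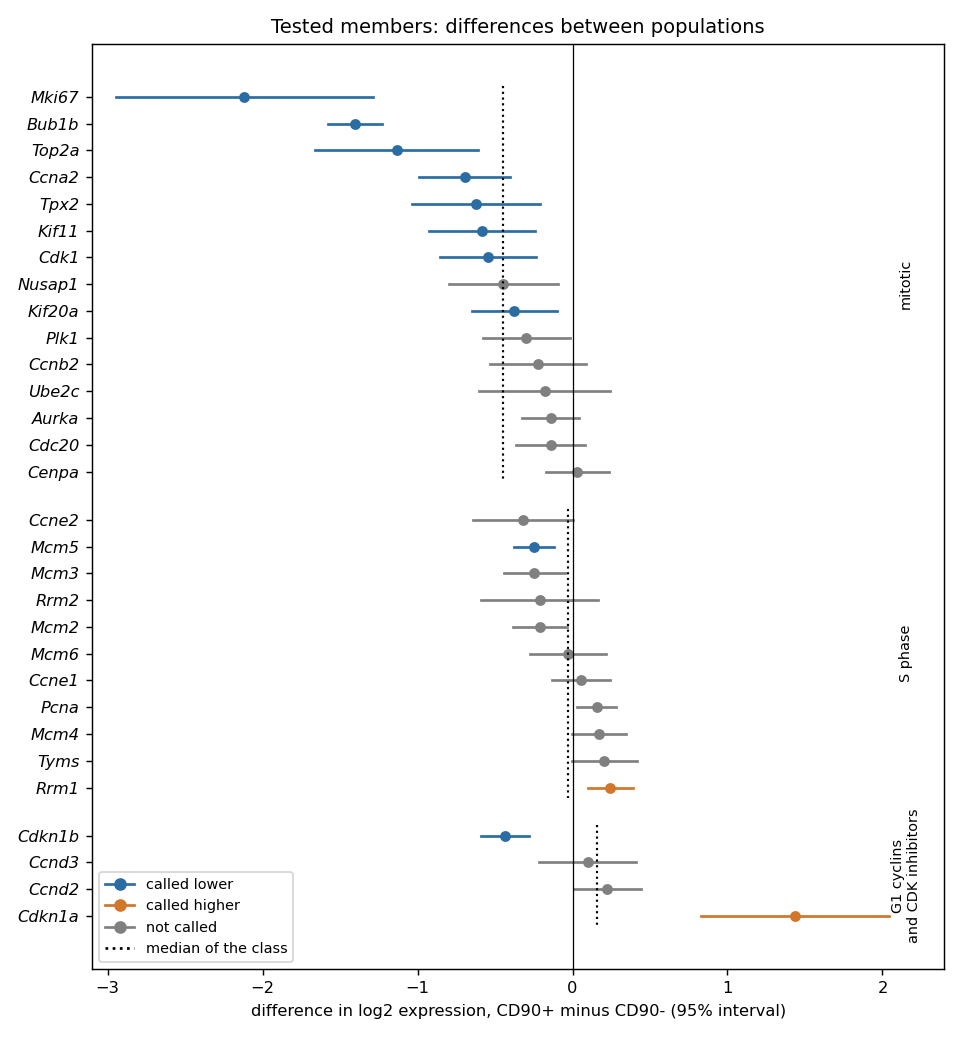
Difference in log2 expression between populations, CD90+ minus CD90- (x axis), with its 95% interval from limma, for the 30 tested genes (y axis), and the median of each class as a dotted line. The mitotic differences ran from -2.12 for Mki67 to 0.03 for Cenpa, while those of S phase genes lay on both sides of 0.

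The promoters of the mitotic genes shared sequence features, which did not enter the tests above. RefSeq promoter windows on GRCm38.p6, from 250 bases before to 50 bases after the transcription start, were found for 32 of the 40 genes. They were searched on both strands for CCAAT (the CCAAT box), for TTTGAA or TTTAAA (the cell cycle homology region), and for TTTGGCGC, TTTCCCGC, TTTCGCGC or TTTGCCGC (the E2F site). Matches of different kinds overlapped at 1 place in these genes' windows. Of the 18 mitotic windows 16 held a CCAAT box (88.9%), 16 held a cell cycle homology region (88.9%) and 15 held both (83.3%). Of all 32851 windows 37.4%, 27.6% and 10.7% did. More than a single CCAAT box was found in 12 mitotic windows (66.7%), against 11.7% of all windows. An E2F site was found in 1 mitotic window (5.56%), that of Cdk1, and in 2.26% of all windows. In 14 mitotic genes a cell cycle homology region lay within 50 bases of the start, a count that was not made for all windows. These matches describe letters and show no bound factor.

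The 200 bases before the start are shown for 4 mitotic genes that were called lower, because they show CCAAT boxes, repeated in 3 of the 4, together with the cell cycle homology region. They run 5′ to 3′ in the direction of transcription, end at the base before the start, and carry in capitals every match to the letters above on either strand (CCAAT appears as ATTGG and TTTGAA as TTCAAA on the other strand).
Mki67 (chr7:135716380-135716579, minus strand): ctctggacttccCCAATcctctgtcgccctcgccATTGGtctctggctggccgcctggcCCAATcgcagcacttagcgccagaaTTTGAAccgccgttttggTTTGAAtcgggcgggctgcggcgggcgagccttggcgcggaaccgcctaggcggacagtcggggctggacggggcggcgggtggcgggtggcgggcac
Top2a (chr11:99024190-99024389, minus strand): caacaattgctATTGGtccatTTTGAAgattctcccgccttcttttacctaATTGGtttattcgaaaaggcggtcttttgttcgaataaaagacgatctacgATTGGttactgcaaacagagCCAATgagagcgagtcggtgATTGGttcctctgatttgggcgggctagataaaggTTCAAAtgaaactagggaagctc
Cdk1 (chr10:69352913-69353112, minus strand): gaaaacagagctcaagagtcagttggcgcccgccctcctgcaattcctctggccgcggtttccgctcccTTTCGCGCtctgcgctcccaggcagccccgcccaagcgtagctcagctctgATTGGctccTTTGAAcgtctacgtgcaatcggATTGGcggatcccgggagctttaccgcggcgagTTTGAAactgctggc
Kif11 (chr19:37376182-37376381, plus strand): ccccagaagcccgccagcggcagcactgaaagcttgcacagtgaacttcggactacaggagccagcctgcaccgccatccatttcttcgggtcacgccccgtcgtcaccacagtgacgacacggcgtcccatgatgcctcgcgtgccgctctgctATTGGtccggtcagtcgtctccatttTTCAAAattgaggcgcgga

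Top2a carried 5 CCAAT boxes in this stretch and Mki67 carried 3, each with 2 cell cycle homology regions. Cdk1 held an E2F site upstream of the other matches shown, and Kif11 held a single CCAAT box and a single cell cycle homology region. Bub1b, the gene with the smallest adjusted p, had 1 CCAAT box and a cell cycle homology region inside the transcribed part of its window. Cenpa, which was not called, carried CCAAT boxes and cell cycle homology regions as well, so that holding these letters did not separate called from uncalled genes.

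**Figure D3:**
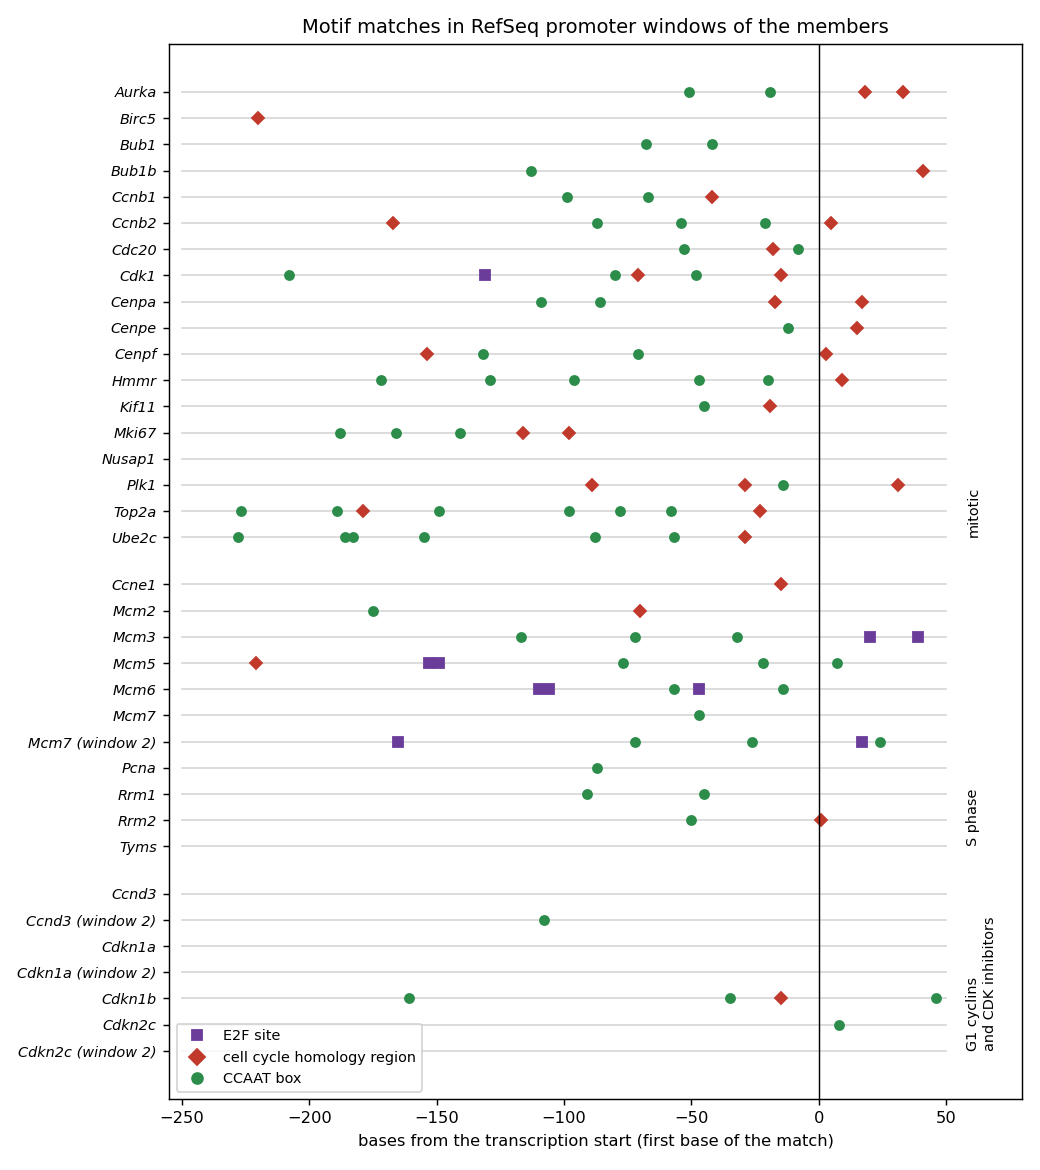
Motif matches in RefSeq promoter windows of the members (y axis, 1 line per window), by distance in bases from the transcription start (x axis; 0 is the start). CCAAT boxes (green) and cell cycle homology regions (red) fill the mitotic windows, 15 of 18 with both, while E2F sites (purple) are found mostly in windows of Mcm genes.

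S phase genes were called in both directions or, mostly, not at all. All 11 measured genes were tested, of which 1 was called higher and 1 lower, with a median difference of -0.03. Over all genes tested, 14.0% were called higher and 15.7% lower. With arrays centred on the negative control probe sets the counts were 5 higher and 0 lower of 11, with a median of 0.14 against 0.16 over all genes, so that the direction of the small S phase differences rested on the scaling. Without samples 13 and 14 the counts were 0 higher and 1 lower. The difference between the S phase and the mitotic class was not tested.

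Among the genes of nucleotide supply, Rrm1, the large subunit of ribonucleotide reductase, was called higher. It measured 8.08, 8.19, 8.27 and 8.21 in CD90- samples and 8.48, 8.45, 8.38 and 8.41 in CD90+ samples. The populations did not overlap, and the mean rose by 0.24 ± 0.06 (SE; limma adjusted p = 0.0197). Without samples 13 and 14 the difference was 0.19 and the adjusted p 0.0606. Rrm2, the small subunit, whose level follows the cycle more closely, ran from 5.18 to 6.01 in CD90- and from 5.18 to 5.60 in CD90+ samples (difference -0.21, adjusted p = 0.376). Tyms, thymidylate synthase, differed by 0.20 (adjusted p = 0.132).

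The Mcm genes encode the helicase that is loaded at replication origins. Mcm5 measured 6.72, 6.85, 6.82 and 6.82 in CD90- samples and 6.59, 6.57, 6.53 and 6.53 in CD90+ samples. The populations did not overlap and the mean fell by 0.25 ± 0.06 (SE; limma adjusted p = 0.0106), a fall that was -0.08 (adjusted p = 0.34) with arrays centred on the negative control probe sets. Mcm2 measured 6.92, 6.72, 6.91 and 6.96 in CD90- samples and 6.66, 6.56, 6.78 and 6.66 in CD90+ samples. Sample 15 lay below the highest CD90+ value, and Mcm2 was not called (difference -0.21, adjusted p = 0.0683). The differences of Mcm3, Mcm4 and Mcm6 were -0.25, 0.17 and -0.03 (adjusted p = 0.0603, 0.134 and 0.869).

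Pcna, the sliding clamp of DNA polymerases, measured 12.89, 12.89, 12.92 and 12.88 in CD90- samples and 12.98, 13.05, 13.08 and 13.11 in CD90+ samples. Every CD90+ sample was above every CD90- sample, yet the difference of 0.16 ± 0.06 (SE; 95% interval 0.03 to 0.28) had a limma adjusted p of 0.0663 and was not called. Ccne1, which encodes cyclin E1 of the G1 to S transition, measured 6.28, 6.50, 6.51 and 6.50 in CD90- samples and 6.49, 6.64, 6.51 and 6.38 in CD90+ samples. The populations overlapped (difference 0.06, adjusted p = 0.658). Its paralogue Ccne2 differed by -0.32 (95% interval -0.64 to 0.0039; adjusted p = 0.127).

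In S phase promoters the balance of motifs was another one. Of 11 windows of 10 genes, 4 held an E2F site (36.4%), 9 a CCAAT box (81.8%), 4 a cell cycle homology region (36.4%) and 3 both of the latter (27.3%). The 7 windows of 4 genes of the G1 class held an E2F site in 0, a cell cycle homology region in 1 and a CCAAT box in 3. Mcm6 and Rrm1 are shown in the same way, the first for its 3 E2F sites, of which the first 2 overlap, and the second as the S phase gene that was called higher.
Mcm6 (chr1:128359706-128359905, minus strand): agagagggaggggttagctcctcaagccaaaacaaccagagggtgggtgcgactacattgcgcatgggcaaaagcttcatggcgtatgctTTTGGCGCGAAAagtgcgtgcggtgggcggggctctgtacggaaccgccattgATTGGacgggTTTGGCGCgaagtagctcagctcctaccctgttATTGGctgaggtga
Rrm1 (chr7:102441495-102441694, plus strand): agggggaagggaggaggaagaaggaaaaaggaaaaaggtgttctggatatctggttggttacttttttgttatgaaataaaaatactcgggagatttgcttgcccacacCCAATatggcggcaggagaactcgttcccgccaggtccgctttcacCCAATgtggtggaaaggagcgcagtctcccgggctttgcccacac

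The Rrm1 stretch held CCAAT boxes and no match to the E2F letters or the cell cycle homology region, which says only that these letters are not in this window.

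In the G1 class 1 of 4 tested genes was called higher and 1 lower, against 14.0% and 15.7% of all genes tested. Cdkn1a, which encodes the CDK inhibitor p21, measured 12.44, 11.19, 11.83 and 11.68 in CD90- samples and 12.73, 13.47, 13.19 and 13.51 in CD90+ samples. Sample 13 was the highest of the CD90- samples and sample 14 the lowest of the CD90+ samples, and the populations did not overlap. The mean rose by 1.44 ± 0.27 (SE; limma adjusted p = 0.00384), and by 1.82 without samples 13 and 14. Cdkn1b, which encodes the inhibitor p27, moved the other way. It measured 9.07, 9.21, 9.16 and 9.16 in CD90- samples and 8.78, 8.81, 8.65 and 8.62 in CD90+ samples. The populations did not overlap, and the mean fell by 0.44 ± 0.07 (SE; adjusted p = 0.00149).

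Cdkn2c, which encodes the Cdk4 and Cdk6 inhibitor p18, was too dim for the main test. It measured 4.96, 5.09, 5.49 and 5.10 in CD90- samples and 4.65, 4.71, 4.54 and 4.36 in CD90+ samples. The populations did not overlap, and with every measured gene tested the difference of -0.60 had a limma adjusted p of 0.0102. Ccnd2, which encodes cyclin D2, measured 9.85, 9.65, 9.80 and 9.77 in CD90- samples and 10.14, 10.12, 9.76 and 9.96 in CD90+ samples. It overlapped through sample 18 (difference 0.22, 95% interval 0.01 to 0.44, adjusted p = 0.111). Ccnd3, which encodes cyclin D3, measured 8.16, 7.92, 7.63 and 7.75 in CD90- samples and 8.08, 8.13, 7.67 and 7.97 in CD90+ samples. Its populations overlapped throughout (difference 0.10, adjusted p = 0.648).

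Related genes outside the 40 were read from further lists, which were also chosen with earlier results of these data known. Of 40 other mitotic genes, all measured, 22 were tested, of which 6 were called lower and 1 higher, with a median difference of -0.19. The shares over all genes tested were 15.7% lower and 14.0% higher. The mean was lower in CD90+ cells in 37 of the 40, a share that was not counted over all genes. In 32 of the 40 both population means were below the negative control medians, which were themselves lower in CD90+ samples. With negative control centring the median difference was -0.02, against 0.16 over all genes. The called genes with the smallest p were Anln (difference -1.01, limma adjusted p = 0.00054), which encodes the cytokinesis scaffold anillin, Smc4 (-1.55, 0.00201), a subunit of condensin, Kif23 (-0.98, 0.0112), a kinesin of the midbody, and the mitotic kinase gene Pbk (-0.70, 0.0159). Smc4 was bright, at 9.40, 10.29, 10.56 and 10.55 in CD90- samples and 8.30, 8.89, 8.72 and 8.71 in CD90+ samples. Its populations did not overlap, at levels well above the negative control medians. The single gene called higher was Cks1b (0.23, adjusted p = 0.0435), a partner of CDKs, named here after its value was seen.

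Of 28 other measured S phase genes 21 were tested, and 3 were called lower and 0 higher, with a median difference of -0.08. These shares were no larger than the 15.7% and 14.0% over all genes tested and set nothing apart in this list. The called genes were Tk1, thymidine kinase (difference -0.48, limma adjusted p = 0.00498), Prim1, the catalytic subunit of primase (-0.45, 0.00582), and Dtl, an adaptor of a ubiquitin ligase active in S phase (-0.51, 0.021), whose call was lost under 4 of 17 alternatives. In all 3 the populations did not overlap. With arrays centred on the negative control probe sets the count of this list was 5 higher and 2 lower. At an unadjusted p below 0.05, limma placed 1 gene higher and 5 lower, against 6986 of all 17220 genes in both directions together.

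Among the regulators of these programmes, 13 genes of the RB, E2F and MuvB list were tested, of which 2 were called lower and 0 higher (3 and 1 at an unadjusted p below 0.05), shares no larger than those over all genes tested. The called genes were E2f5, a repressor E2F (difference -0.69, limma adjusted p = 0.000681), and Tfdp2, a dimer partner of E2F factors (-0.28, 0.0416), whose call was lost under 9 of 18 alternatives. Among 14 tested CDKs, inhibitors and regulators outside the 40, 5 were called higher and 4 lower, against 14.0% and 15.7% of all genes tested. Cdk4, the kinase of the D-type cyclins, was 11.85, 11.90, 11.90 and 11.88 in CD90- samples and 11.37, 11.33, 11.32 and 11.33 in CD90+ samples. Its populations were tight and far apart, with a difference of -0.55 ± 0.05 (SE; adjusted p = 8.5e-05). Cdk2, the kinase of cyclins E and A, fell by 0.74 (adjusted p = 0.0008). Cables1, a CDK-binding adaptor, rose by 0.99 (adjusted p = 0.000323) and Ccng1, cyclin G1, by 0.60 (adjusted p = 0.000977).

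**Figure D4:**
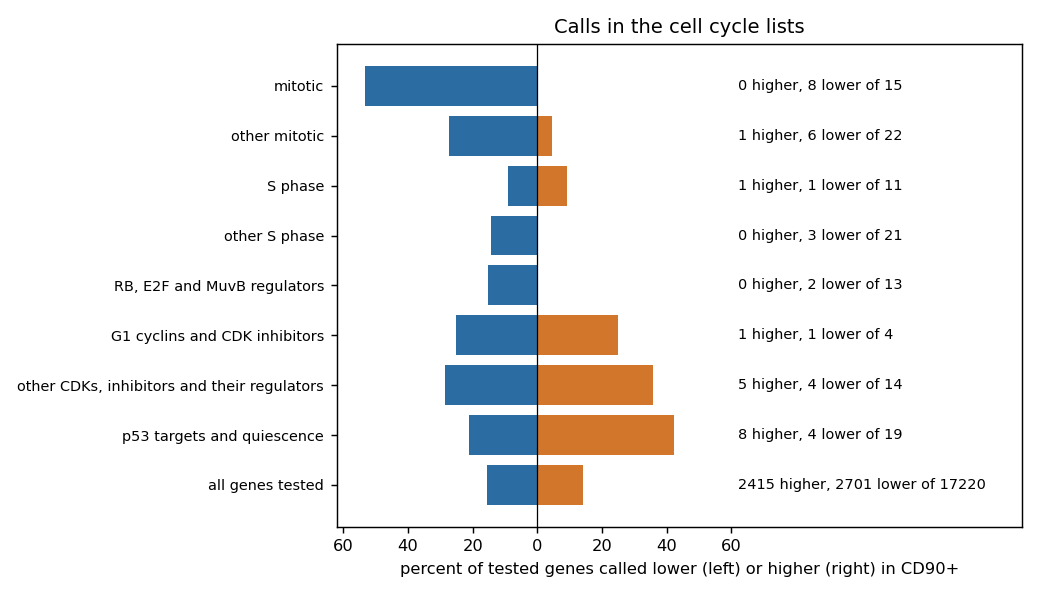
Percent of the tested genes of each list (y axis) called lower (left, blue) or higher (right, orange) in CD90+ cells (x axis), with counts at the right. The mitotic list had 8 of 15 genes called lower and 0 higher, while the S phase list had 1 of 11 in each direction. Over all genes tested, 15.7% were called lower and 14.0% higher.

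Markers of other cells were read beside these results. The marker counts here and in the next paragraph stand beside 14.0% called higher and 15.7% called lower over all genes tested. The mean of the 21 measured mitotic genes was 5.84 in sample 13 and 6.28 to 6.33 in the other CD90- samples, against 5.51 in sample 14 and 5.69 to 5.74 in the other CD90+ samples. Colon epithelium, a tissue of fast division, was read from 17 markers, led by Car1, Muc2 and Krt8. Of the 15 tested, 0 were called by limma and 0 had an unadjusted p below 0.05, and the list mean ran from 7.14 to 8.87 in CD90- samples and from 7.50 to 8.78 in CD90+ samples. Its highest values were in CD90- sample 13, with a mitotic mean of 5.84, and in CD90+ sample 20, with a mitotic mean of 5.73. Any link between the epithelial and the mitotic levels was not tested. Leukocyte markers, led by Cd68, Kit and Lyz2, were called higher for 4 of 7 tested, with list means of 5.30 to 5.54 and 5.55 to 5.80, and 12 of 15 lay below the negative control medians in both populations. Ptprc, the gene of CD45, lay between 4.49 and 5.02 in all samples, and Pecam1, the gene of CD31, between 5.84 and 7.01. Epcam lay between 7.21 and 9.40, above the negative control median of every array. Of the 17 epithelial markers, 6 had both population means below the negative control medians.

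Of 13 smooth muscle and pericyte markers, led by Acta2, Myh11 and Tagln, 6 were called higher and 6 lower by limma. Their mean was 9.39 in sample 13 and 9.26 in sample 14, against 8.94 to 9.03 in the other CD90- samples and 8.35 to 8.42 in the other CD90+ samples. Endothelial markers, led by Tek, Lyve1 and Pecam1, were called higher for 1 and lower for 2 of 8 tested, with means of 5.67 to 6.11 and 5.77 to 6.26. Enteric glia markers, led by Ednrb, Cdh19 and Erbb3, were called higher for 7 and lower for 1 of 8, with means of 6.56 to 6.86 and 6.91 to 7.88. Of 15 fibroblast markers, 5 were called higher and 5 lower. The part of these cells in the mitotic difference was not tested.

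**Figure D5:**
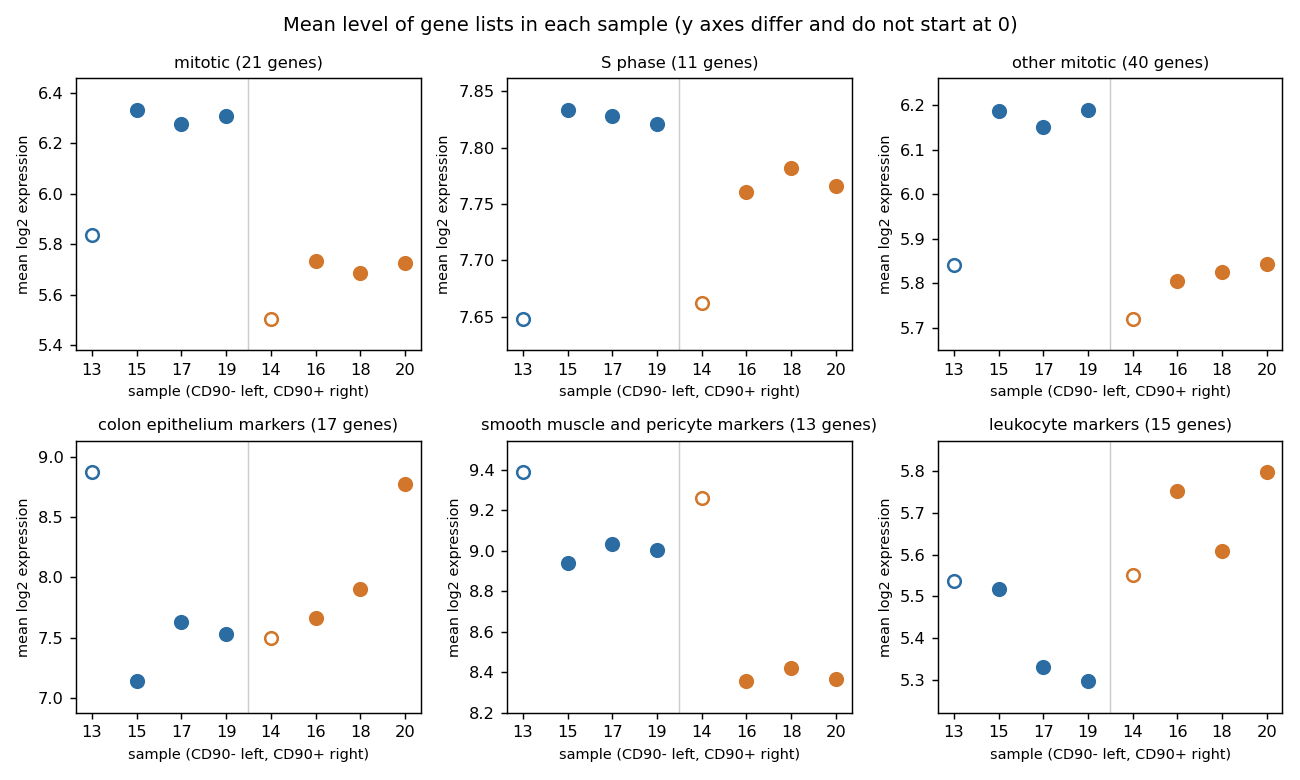
Mean log2 expression (y axes, which differ and do not start at 0) of the measured genes of 6 lists in each sample (x axis), CD90- in blue and CD90+ in orange, with open circles for samples 13 and 14. The mitotic mean, 5.84 to 6.33 against 5.51 to 5.74, did not overlap between populations. The epithelial mean, 7.14 to 8.87 against 7.50 to 8.78, overlapped. Any link between these lists was not tested.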

How the data were processed

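The authors deposited 1 log2 value for each transcript cluster on each array, made with Affymetrix Expression Console 1.1 and RMA, per the submitters' processing notes. Settings and genome build are not given in the sources used here. That table held 72688 rows, 6732 of them controls; 31259 clusters named 1 gene, 1491 several and 33206 none. In 563 clusters the mean was above 16, beyond a 16-bit scan. Symbols were updated through RefSeq (GRCm38.p6), which also gave the promoters.

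The values were fitted with limma 3.58.1 (R 4.3.3; lmFit and eBayes, CD90+ against CD90-, 4 samples each) over all 17220 genes passing the filter, with Benjamini-Hochberg adjustment over all of them. The number of arrays limits precision. The fit was tested on simulated data. Tables and figures were made with Python 3.11.15, pandas 2.3.3 and matplotlib 3.10.9. The members and gene lists were chosen with earlier results of these data known. Members called, and a fixed set of cyclins, inhibitors and markers of division, are given sample by sample, up to 4 called genes with the smallest p are named from each other proliferation list, and the 3 with the highest mean from each marker list. The alternatives were 18: filters, normalizations, variance models, array weights, cluster choice, a term for or omission of samples 13 and 14, and omission of each sample. Sample numbers are all different and pair no samples.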

Additional observations from a re-analysis of the deposited data

Results flagged for a closer look

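Of 74 sets of 4 samples, each 1 gene in 1 population, 5 had a lowest sample set apart from the other 3 by Dixon's test at 95%; chance gives about 1 in 20 sets. Mki67 was 7.74 in CD90- sample 13, where the next sample was at 9.03. Mki67 was also 5.76 in CD90+ sample 14, where the next was at 6.76. In CD90- sample 13, Plk1 was 6.29 (next 6.71), Nusap1 was 5.87 (next 6.52) and Ccne1 was 6.28 (next 6.50). All 5 fell in samples 13 and 14, the samples with high Xist. The cause was not tested.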

How the results depend on the processing

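Mki67, Top2a, Cdk1, Ccna2, Bub1b, Cdkn1a and Cdkn1b kept direction and call under every alternative that tested them. The centring of arrays on negative control probe sets was chosen after seeing the data. With that centring, genes called higher and lower over the whole table numbered 5425 and 1463, S phase members 5 and 0, G1 members 2 higher, other S phase genes 5 higher, and the RB, E2F and MuvB list 1 and 1. Without a filter, G1 members called lower were 2, other mitotic genes 10 lower and 0 higher, and the RB list 1 lower. The stricter filter, at 6.54, left 3 mitotic members called lower, all of those it tested. Bub1b reached that filter through its CD90- samples alone, so its direction was fixed by passing. The stricter filter also left 1 other S phase and 1 other mitotic gene called lower, and 1 gene of the RB list called higher. Array weights gave S phase members 3 higher and 4 lower, other S phase genes 1 higher and 5 lower, other mitotic genes 11 lower and the RB list 1 higher; the robust trended variance also gave the RB list 1 higher. Centring on medians gave S phase members 3 lower, other S phase genes 5 lower and other mitotic genes 0 higher. Another quantile normalization gave other S phase genes 5 lower and the RB list 1 lower. A term for samples 13 and 14 gave other S phase genes 1 higher and 5 lower. Without both samples, S phase members were 0 higher, other S phase genes 5 lower, and other mitotic genes 10 lower and 0 higher. The cause was not tested.

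Leaving out each sample in turn, the mitotic members called lower ranged from 5 to 10 and higher from 0 to 0, S phase members from 1 to 2 higher and 1 to 3 lower, and G1 members from 1 to 2 higher and 1 to 1 lower. Other mitotic genes ranged from 4 to 9 lower and 0 to 1 higher, other S phase genes from 2 to 5 lower and 0 to 0 higher, the RB list from 0 to 1 higher and 1 to 2 lower, and all genes from 1923 to 2381 higher and 2000 to 2879 lower. The list of other CDKs ranged from 4 to 5 higher and 3 to 4 lower, and the p53 list from 7 to 8 higher and 4 to 4 lower.

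Uncalled differences near 0 changed sign. With negative control centring Aurka was 0.028, Cdc20 0.030 and Mcm6 0.14. Mcm6 was 0.010 with another quantile normalization and 0.0007 without samples 13 and 14. Cenpa was -0.011 with median centring, and Ccne1 -0.011 with array weights. Leaving out each sample in turn, Mcm6 ranged from -0.084 to 0.046, Cenpa from -0.015 to 0.094 and Ccne1 from -0.00080 to 0.096. No paired analysis was possible because the sample numbers are all different and the labels tie no sample to a mouse.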

Other observations

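Targets of p53 and genes of quiescence moved in both directions. Of 19 tested, 8 were called higher and 4 lower in CD90+ cells, with a median difference of 0.22. Of all genes tested, 14.0% were called higher and 15.7% lower. Foxo1, a transcription factor active in resting cells, measured 9.10, 8.89, 9.08 and 8.95 in CD90- samples and 10.04, 10.28, 10.05 and 10.26 in CD90+ samples. The populations did not overlap, and the mean rose by 1.15 ± 0.09 (SE; limma adjusted p = 1.93e-05). Plk2, a polo-like kinase gene, measured 13.13, 12.13, 12.97 and 12.67 in CD90- samples and 10.31, 10.47, 10.27 and 10.30 in CD90+ samples. It fell by 2.39 ± 0.20 (SE; adjusted p = 3.58e-05) with no overlap. Trp53inp1, a p53-induced nuclear protein gene, fell by 1.03 (adjusted p = 5.01e-05), and Gadd45a, a growth arrest gene, by 1.25 (adjusted p = 9.72e-05). The p53 target Cdkn1a, described above, rose over the same samples. Btg1, an antiproliferative gene named after its value was seen, rose by 1.52 (adjusted p = 0.000404).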
